A study of Mus musculus with 8 samples.

Results

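The Peg3 imprinted cluster is a group of zinc finger and ubiquitin protease genes on the proximal part of mouse chromosome 7. The members were chosen by name as Peg3, Usp29, Zim1 and Zfp264, and each was to be read at the midpoint of its gene, with the replication timing profile 1 Mb to either side. Of the 4 names, 3 were matched and scored, among 21536 genes scored in the whole series, and Zfp264 was not analysed here. Genes in this cluster are imprinted: one parental copy is active and the other is silenced, and a methylated control region at the shared start of Peg3 and Usp29 holds repeated sites for YY1, a zinc finger transcription factor. Peg3 encodes a large zinc finger protein made from the paternal copy, Usp29 encodes a ubiquitin-specific protease, also paternal, and Zim1 encodes a zinc finger protein made from the maternal copy. Replication timing is the order in which parts of the genome are copied during S phase, and active, gene-dense regions are generally copied before silent, gene-poor ones.

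Timing was measured in mouse embryonic stem cells in 2 groups, cells 2 days after treatment with dTAG, a small molecule that leads a tagged protein to the proteasome, and control cells. The study is titled for YY1, and its labels name neither the tag nor the cell line, and refer to an earlier publication for culture and treatment. YY1 protein and its binding were not measured in the values used here, and the 2 parental copies share 1 score, so an average over both alleles is given throughout. Cells had taken up the thymidine analogue BrdU for 2 h before being sorted by DNA content into early and late S phase, with 40000 cells in each fraction.

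The 8 samples made 4 profiles, dTAG 1, dTAG 2, control 1 and control 2, each with 1 signed score every 5 kb. The score has no stated formula, log base or direction, and read depth is unknown. High was read as early, because 96 of 97 ribosomal protein genes (99.0%) scored above 0, against 2 of 59 genes of at least 1 Mb in length (3.39%). For dTAG replicate 1 the sample titles and the fraction labels disagree on which fraction is early, and its profile nevertheless ran the same way as the other 3 over the series (r of 0.97 with dTAG 2, 0.99 with control 1 and 0.97 with control 2). Sorted by size, the scores of dTAG 1 and control 1 were the same to within 5.16e-05, those of dTAG 2 and control 2 to within 0.000114, and those of dTAG 2 mirrored those of dTAG 1. Profiles of 1 replicate number thus share 1 distribution, and differences within a number stand beside the pooled ones below.

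The gene starts carry the feature for which the cluster is best known, a CG-rich stretch between Peg3 and Usp29 that is methylated on one parental copy. The 300 bases from 250 before to 50 after the start, from RefSeq on build GRCm38.p6, are shown for the 3 scored members with each CG dinucleotide, the substrate of that methylation, in capitals. Peg3 lies on the minus strand (chr7:6730370-6730669), Usp29 on the plus strand (chr7:6730333-6730632) and Zim1 on the minus strand (chr7:6696383-6696682).
Peg3: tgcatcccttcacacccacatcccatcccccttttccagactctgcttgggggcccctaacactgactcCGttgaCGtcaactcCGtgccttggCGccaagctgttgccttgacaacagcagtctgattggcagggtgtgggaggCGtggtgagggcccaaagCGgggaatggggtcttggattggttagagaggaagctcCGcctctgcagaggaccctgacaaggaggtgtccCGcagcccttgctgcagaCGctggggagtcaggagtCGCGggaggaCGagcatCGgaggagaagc
Usp29: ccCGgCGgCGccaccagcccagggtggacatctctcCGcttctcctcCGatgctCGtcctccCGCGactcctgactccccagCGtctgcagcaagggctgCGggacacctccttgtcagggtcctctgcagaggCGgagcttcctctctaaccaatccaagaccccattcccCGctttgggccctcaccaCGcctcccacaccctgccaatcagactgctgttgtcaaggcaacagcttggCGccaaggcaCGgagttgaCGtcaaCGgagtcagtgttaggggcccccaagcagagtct
Zim1: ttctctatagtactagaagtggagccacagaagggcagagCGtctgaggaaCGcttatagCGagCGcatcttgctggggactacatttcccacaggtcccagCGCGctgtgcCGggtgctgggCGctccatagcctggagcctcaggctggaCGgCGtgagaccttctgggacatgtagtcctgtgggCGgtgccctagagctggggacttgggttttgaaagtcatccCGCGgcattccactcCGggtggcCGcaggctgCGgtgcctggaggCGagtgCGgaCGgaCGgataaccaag
The starts used for the Peg3 and Usp29 windows were 164 bases apart, and 263 of the 300 bases were the same stretch read from opposite strands. The Peg3 window held 13 CG dinucleotides, that of Usp29 17 and that of Zim1 20, against a median of 7 over 32851 promoters in the same table. The share of promoters with fewer was 62.1% for Peg3, 68.6% for Usp29 and 73.5% for Zim1, so many promoters held as many or more. The GC content was 61.3% for Peg3, 63.7% for Usp29 and 61.7% for Zim1, against a median of 52.7%. The YY1 core letters GCCATNTT, searched on both strands, were in 6.05% of all promoters, and the shorter CCATNTT, which every longer match also holds, in 16.1%. Neither was in the windows of Peg3, Usp29, Zim1 or their neighbour Zim2. These windows stop 50 bases past the start used for each, which was 6730419 for Peg3, 6730583 for Usp29 and 6696432 for Zim1. Those starts differ from the ends of the gene coordinates given below. No more of the control region was read.

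All 3 scored members replicated with scores above 0, on the early side of the scale, in all 4 profiles, and at each of them the dTAG score was higher than the control score of the same replicate number. The difference was largest at the Usp29 midpoint and smaller at Peg3 and Zim1. None of the 3 passed the test across all genes.

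At Peg3 (chr7:6703892-6730462) the score was 2.18 and 1.90 in the dTAG profiles 1 and 2, against 2.07 and 1.45 in the control profiles 1 and 2. The low value was control 2, and dTAG 2 lay below control 1, so the groups overlapped. The means were 2.04 ± 0.20 in dTAG and 1.76 ± 0.44 in control cells (SD, n = 2 each). The difference of 0.28 score units was smaller than the SD of the controls. Its standard error was 0.37 and its 95% interval -0.68 to 1.24 (limma, 2-sided, unadjusted p = 0.485, Benjamini-Hochberg adjusted p = 0.9999). Both that SD and that standard error include the gap between replicate numbers. With the replicate number as a block the standard error was 0.20 and the 95% interval -0.23 to 0.79 (limma, 2-sided, adjusted p = 0.766). The difference was 0.11 between the profiles numbered 1 and 0.45 between those numbered 2. Without control 2 the difference at Peg3 was -0.03, and the median of all genes -0.22.

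Zim1 (chr7:6674444-6696540), the neighbour on the centromere side, had scores of 2.06 and 1.84 in dTAG and 1.98 and 1.38 in control cells. Again control 2 stood apart below the other 3 profiles and the groups overlapped. Control 2 minus control 1 was -0.62 at Peg3 and -0.61 at Zim1, and its median over all genes was -0.42. Much of the low control 2 was thus shared with the whole series. The median score of all genes was 3.35 and 3.03 in dTAG 1 and 2, and 3.37 and 3.10 in control 1 and 2. The means were 1.95 ± 0.16 in dTAG and 1.68 ± 0.43 in control cells (SD, n = 2 each). The difference was 0.27 (standard error 0.37, 95% interval -0.67 to 1.21, limma, 2-sided, adjusted p = 0.9999). It was 0.08 within number 1 and 0.46 within number 2, and -0.03 without control 2. With the replicate number as a block the standard error was 0.21 and the 95% interval -0.25 to 0.79 (limma, 2-sided, adjusted p = 0.780).

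Usp29 (chr7:6730559-6967220) is by far the longest member, at 237 kb, and its midpoint lies 132 kb from that of Peg3. Its scores were 2.57 and 2.38 in dTAG, against 2.04 and 2.07 in control cells. Both dTAG profiles lay above both controls here. The controls were close together because they cross next to this position, at 6.845 Mb, and they stood farther apart toward both ends of the gene. The means were 2.48 ± 0.13 in dTAG and 2.06 ± 0.02 in control cells (SD, n = 2 each), a difference of 0.42 (0.53 within number 1 and 0.31 within number 2). The standard error was 0.31 and the 95% interval -0.38 to 1.22 (limma, 2-sided, unadjusted p = 0.236, adjusted p = 0.9999). With the replicate number as a block the standard error was 0.19 and the 95% interval -0.07 to 0.91 (limma, 2-sided, adjusted p = 0.674). Leaving out any 1 of the 4 profiles kept the difference at Usp29 between 0.32 and 0.51.

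limma called 0 of 3 scored members and 0 of 21536 genes, a background of 0% (171 genes had an unadjusted p under 0.05). Both dTAG profiles lay above both controls at 1 of 3 members, Usp29, where the share of all genes was 10.0%. A higher signed difference than that of Usp29 was found at 5.86% of genes, than that of Peg3 at 12.6% and than that of Zim1 at 13.6%. In either direction, a difference of larger size was found at 15.2% of genes for Usp29, 30.9% for Peg3 and 32.9% for Zim1. An exact permutation of 2 against 2 profiles has 3 splits and cannot give a 2-sided p below 0.333. With the replicate number as a block and a trended, robust variance, limma called 558 genes, or 2.59%, and 0 of the 3 members, with adjusted p = 0.445 at Peg3, 0.112 at Usp29 and 0.498 at Zim1. Nothing in the labels says that the profiles of a group came from separate cultures, so these p-values measure the spread between profiles, which may be technical.

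**Figure D1:**
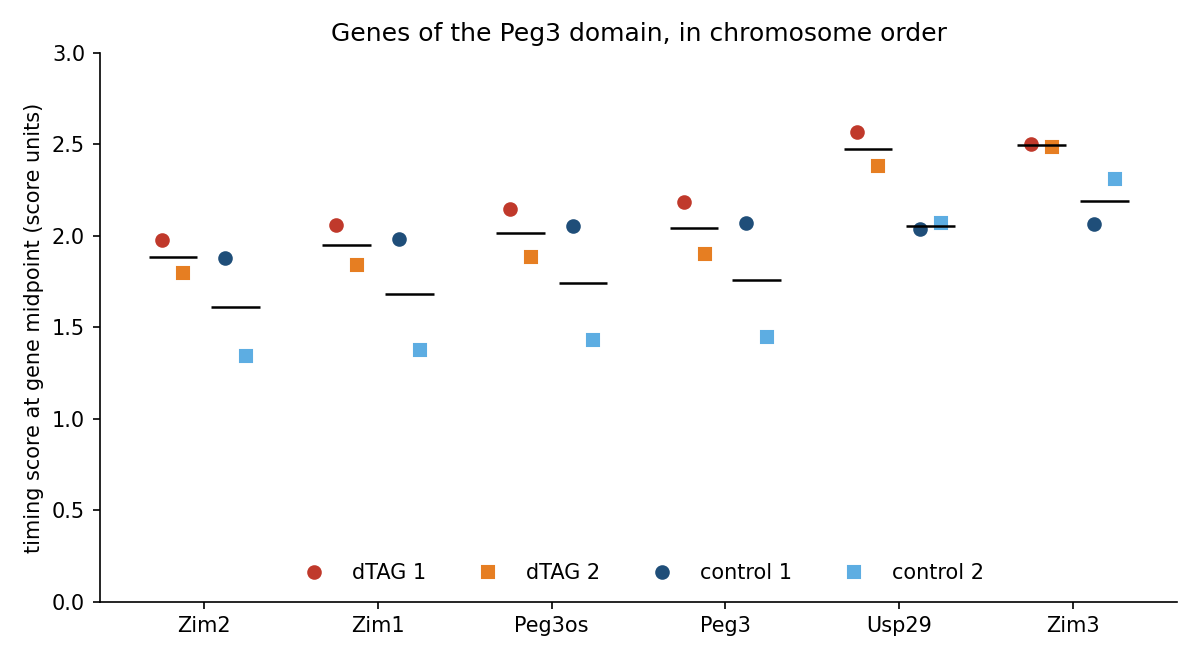
Timing score at the midpoint of each gene of the Peg3 domain, in score units, with genes in chromosome order along the x axis; circles are replicate 1, squares replicate 2, and bars the mean of each group's 2 profiles. The 2 dTAG points lie above both control points at Usp29 and Zim3, and control 2 is the lowest point at the other 4 genes.

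The other transcripts of the domain followed their neighbours. Zim2, annotated here as a long noncoding RNA on the far side of Zim1, had 1.98 and 1.79 in dTAG and 1.88 and 1.34 in control cells. The Peg3 antisense transcript Peg3os, which lies inside Peg3, had 2.15 and 1.88 in dTAG and 2.06 and 1.43 in control cells. Zim3, a long noncoding RNA that overlaps the far end of Usp29, had 2.50 and 2.49 in dTAG and 2.06 and 2.31 in control cells. The groups overlapped at Zim2 and Peg3os. At Zim3 both dTAG profiles were above both controls, as at 10.0% of all genes. The differences were 0.28 at Zim2, 0.27 at Peg3os and 0.31 at Zim3, and limma gave an adjusted p of 0.9999 at each. Peg3os and Zim3 share positions with Peg3 and Usp29, and the scores are smoothed along the chromosome, so these genes are not independent measurements.

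Among themselves the members differed in level by little against the whole scale. The mean score over the 4 profiles was 1.82 at Zim1, 1.90 at Peg3 and 2.27 at Usp29. These were above the mean scores of 32.0%, 32.8% and 35.9% of all genes in that order, so the cluster was early in sign and in the later part of the gene distribution. Peg3 was above Zim1 in every profile, by 0.12 and 0.06 in dTAG and by 0.09 and 0.07 in control cells. Usp29 was above Peg3 by 0.39 and 0.48 in dTAG and by 0.62 in control 2, and it was below Peg3 by 0.03 in control 1. The order of Peg3 and Usp29 was therefore not the same in all profiles, and that of Zim1 and Peg3 was.

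Along the 59 positions from Zim1 to the end of Usp29, the mean score was 2.41 and 2.23 in dTAG and 2.05 and 1.88 in control cells. The dTAG means were above both control means, by 0.36 between the groups, 0.36 within number 1 and 0.35 within number 2. Both dTAG profiles were above both controls at 42 of 59 positions (71.2%) and below both at 0. Over the whole series these shares were 10.9% of positions above and 8.66% below. Neighbouring positions share reads through smoothing: along chromosome 7 the correlation of the dTAG minus control difference with itself was 0.97 at 30 kb, 0.74 at 130 kb, 0.53 at 250 kb and 0.26 at 500 kb. The 42 positions are thus 1 stretch and not 42 observations.

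Within the cluster, that stretch lay in Usp29. No position of Zim1 (0 of 5) or Peg3 (0 of 6) had both dTAG profiles above both controls, against 42 of 47 in Usp29 (89.4%). With Usp29 cut into 3 equal parts, it was 10 of 15 positions in the part next to Peg3, and 16 of 16 each in the middle and last parts. The size of the difference varied less than these counts, with 0.36 in the part next to Peg3, 0.41 in the middle and 0.36 in the last. The spread of both groups and the differences within numbers changed along the gene. Over the 3 parts from the Peg3 side, the SD was 0.169, 0.127 and 0.0537 in dTAG (n = 2), and in control cells it was 0.284, 0.000783 and 0.149 (n = 2). The difference within number 1 was 0.28, 0.50 and 0.50, and within number 2 it was 0.45, 0.32 and 0.21. In the part next to Peg3 control 1 averaged 2.02 and control 2 averaged 1.61, in the middle part both averaged 2.04, and in the last part control 2 was the higher, at 2.31 against 2.10 in control 1. The 2 controls crossed at 6.845 Mb on chromosome 7, 128 kb from the Peg3 midpoint and close to the midpoint of Usp29.

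**Figure D2:**
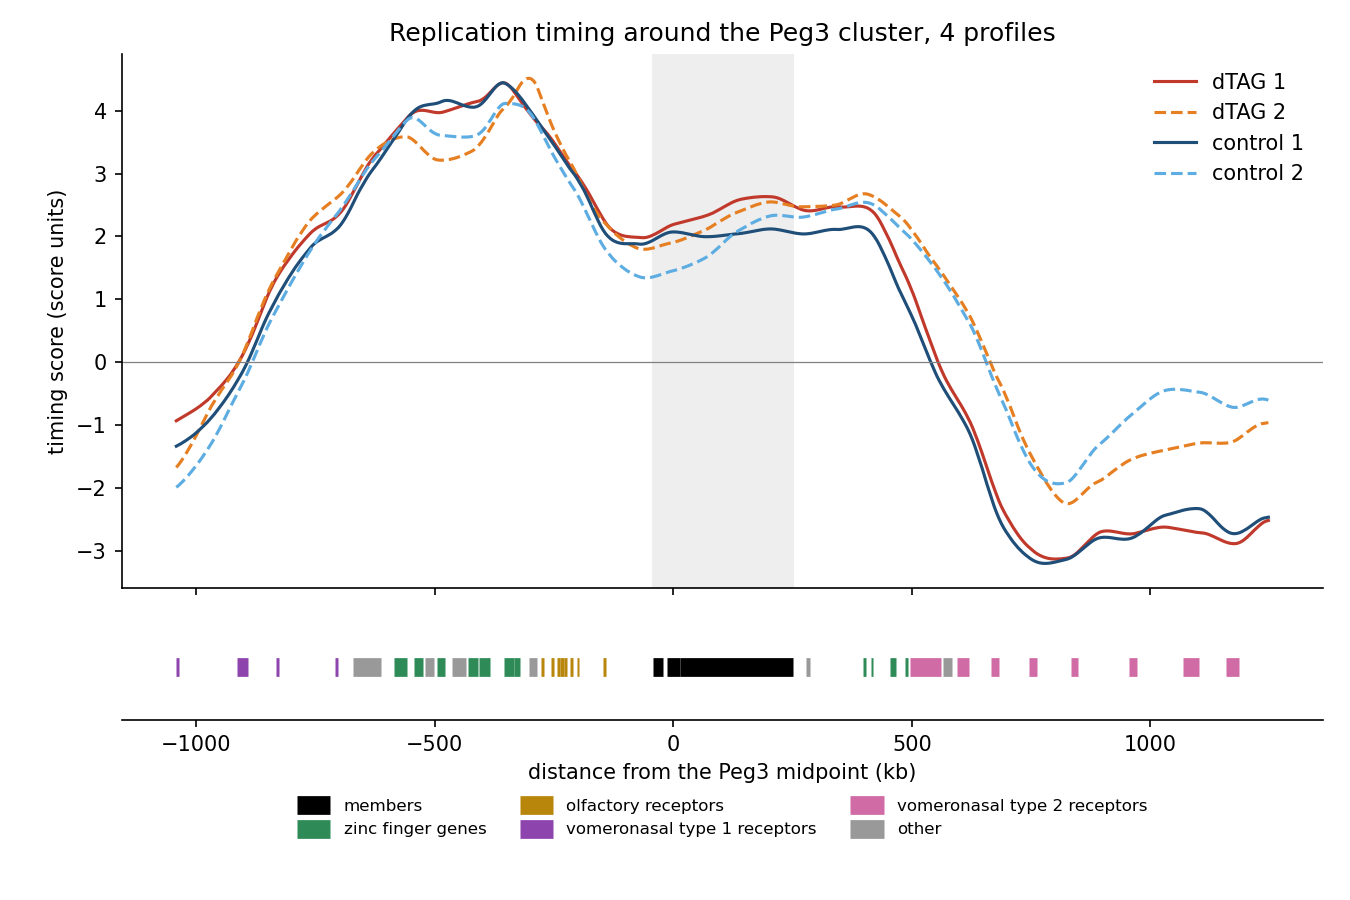
Timing score in score units (y axis) against distance from the Peg3 midpoint in kb (x axis) for the 4 profiles, with Zim1 to Usp29 shaded and the protein-coding genes drawn underneath by family. All 4 profiles peak on the Zim1 side, dip beside Zim1, pass through Usp29 on a plateau above 1 and fall through 0 on the other side.

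The cluster sat on a plateau between an early peak and a fall into late replication. On the Zim1 side the highest score was 4.45 in dTAG 1 and 4.52 in dTAG 2, against 4.44 in control 1 and 4.12 in control 2, at 302 to 357 kb from Peg3. Between that peak and Zim1 all 4 profiles had a local low next to Zim2, at 6.65 to 6.66 Mb, of 1.98 and 1.79 in dTAG and 1.88 and 1.34 in control cells. From there all 4 profiles reached a local high inside Usp29, between 6.91 and 6.935 Mb, of 2.63 in dTAG 1 and 2.55 in dTAG 2, against 2.12 in control 1 and 2.34 in control 2. Control 1 varied least along the gene, from 1.99 to 2.12, and it alone had a further local high of 2.07 within Peg3.

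On the Zim1 side the score crossed 0 at 912 and 911 kb from Peg3 in dTAG and at 893 and 883 kb in control cells, so the dTAG crossing lay at -18.6 kb relative to control within number 1 and at -27.8 kb within number 2, away from the cluster. On the Usp29 side it crossed 0 at 555 and 664 kb in dTAG, against 540 and 656 kb in control cells. The shift within a number was 15.3 kb for number 1 and 8.29 kb for number 2, while the replicate numbers differed by 109 kb in dTAG and 116 kb in control cells. On both sides the early domain was slightly wider in the dTAG profile of each number. On the Usp29 side that shift was far smaller than the gap between replicates, and on the Zim1 side, where replicates were 0.933 kb apart in dTAG and 10.2 kb in control cells, it was larger. Neither shift was tested. The steepest fall over 100 kb was -1.91 and -1.77 in dTAG and -1.90 and -1.83 in control cells.

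Outside the cluster, the 2 flanks differed. In the 1 Mb on the Zim1 side the mean score was 2.45 and 2.33 in dTAG and 2.31 and 2.09 in control cells, and both dTAG profiles lay above both controls at 105 of 200 positions (52.5%). In the 1 Mb on the Usp29 side it was -1.12 and -0.03 in dTAG and -1.23 and 0.19 in control cells, with 22 of 200 such positions (11.0%). The share over the whole series was 10.9% of positions, close to that of the Usp29 side. There the replicates of a group stood farther apart than the groups: the control SD was 1.01 and the difference -0.05. Both dTAG profiles lay below both controls at 0 positions in either flank, against 8.66% of positions over the series.

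Positions with both dTAG profiles above both controls formed 4 stretches in the region. One ran from 6.76 to 7.075 Mb, 64 positions with a mean difference of 0.34, and so reached past the end of Usp29. The others lay at 5.725 to 6 Mb, 6.06 to 6.12 Mb and 6.445 to 6.62 Mb, with mean differences of 0.39, 0.14 and 0.24. The highest difference of the region, 0.47, was at 5.75 Mb in the first of them, and the highest inside the cluster was 0.42. The cluster therefore did not hold the largest difference of its own surroundings.

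In windows of 50 kb, 45 lay in the region and limma called 0 of 45, as it called 0 of 51425 in the series, a background of 0%. The lowest unadjusted p in the region was 0.254, and with the block and a trended, robust variance the lowest adjusted p was 0.115. Both dTAG profiles were at least 0.5 score units above or below both controls in 0 of 45 windows, against 1.62% of windows in the series. With a smaller minimum of 0.25 there were 5 of 45, all higher in dTAG, against 2.45% of windows in the series that were higher by that much. With no minimum there were 16 of 45, also all higher, against 10.9% in the series.

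**Figure D3:**
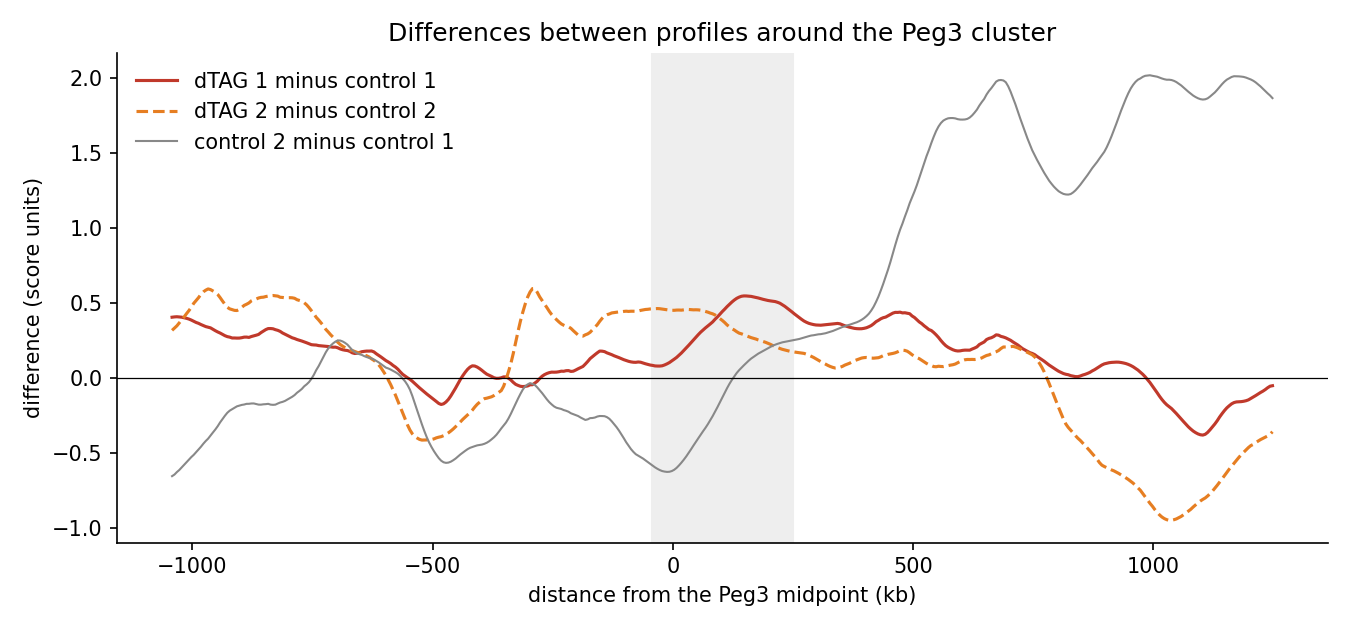
Differences in timing score between profiles (y axis, score units) against distance from the Peg3 midpoint in kb, with Zim1 to Usp29 shaded; the coloured lines are dTAG minus control within each replicate number and the grey line is control 2 minus control 1. Both coloured lines stay above 0 across the cluster, at 0.36 and 0.35 on average, while the grey line passes from below 0 at Peg3 to above 0 in Usp29.

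The neighbours of the cluster are mostly members of gene families that arose by duplication. Of 40 protein-coding genes within 1 Mb, the 3 scored members included, 30 scored above 0 in all 4 profiles and 7 below 0 in all 4. Both dTAG profiles were above both controls at 12 of the 40 and below both at 0. Of all 21536 genes, 10.0% were above and 1812 were below. The 40 genes lie on 1 smoothed profile, so these are not counts of independent observations. The 7 zinc finger genes on the Zim1 side were the earliest family, with medians of 3.74 in dTAG and 3.93 in control cells, and a median difference of -0.05. Zfp78 and Zfp28 had the highest mean scores over the 4 profiles of all neighbours, with 4.38 and 4.15 in dTAG and 4.38 and 4.11 in control cells at Zfp78, and 4.23 and 4.34 in dTAG and 4.27 and 4.10 in control cells at Zfp28. Next came Smim17, which encodes a small membrane protein, with 3.87 and 4.47 in dTAG and 3.91 and 3.87 in control cells; in dTAG 2 alone it was above both.

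Between these and Zim1 lay 8 olfactory receptor genes, with medians of 3.31 in dTAG and 3.11 in control cells. Both dTAG profiles were above both controls at 7 of the 8, against 10.0% of all genes, with a median difference of 0.21. These genes are neighbours on 1 slope of the smoothed profile. The 4 zinc finger genes on the Usp29 side had medians of 2.33 in dTAG and 2.06 in control cells, and the groups overlapped at all 4.

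Vomeronasal receptor genes, which encode pheromone receptors, lay at both ends of the region. The 4 of type 1 had medians of 0.74 in dTAG and 0.35 in control cells, and 2 of them had the highest differences of all neighbours. Vmn1r64 had 1.34 and 1.38 in dTAG and 1.01 and 0.83 in control cells, a difference of 0.44, and Vmn1r63 had 0.13 and 0.13 in dTAG and -0.14 and -0.32 in control cells, a difference of 0.36. Both dTAG profiles were above both controls at Vmn1r64 and Vmn1r63, as at 10.0% of all genes, and limma gave an adjusted p of 0.9999 at each.

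The 8 genes of type 2 lay along and beyond the fall on the Usp29 side. Of these, 6 scored below 0 in all 4 profiles, and 1, Vmn2r29 at the top of the fall, above 0 in all 4. The family had medians of -2.04 in dTAG and -1.56 in control cells, and control 2 was above control 1 by a median of 1.80. The lowest mean score over the 4 profiles was at Vmn2r33, with -3.06 and -2.20 in dTAG and -3.07 and -1.80 in control cells, followed by Vmn2r32 and Vmn2r34. The 2 lowest differences were at Vmn2r35, -0.61, and Vmn2r36, -0.35. Replicate numbers differed by far more than groups at these genes. Clcn4, a gene of another family, lies among these receptor genes on the same smoothed fall and is not a separate reading. There control 2 was above control 1 by 1.73. Near-identical receptor copies can share reads, and whether that bears on the gap was not tested.

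**Figure D4:**
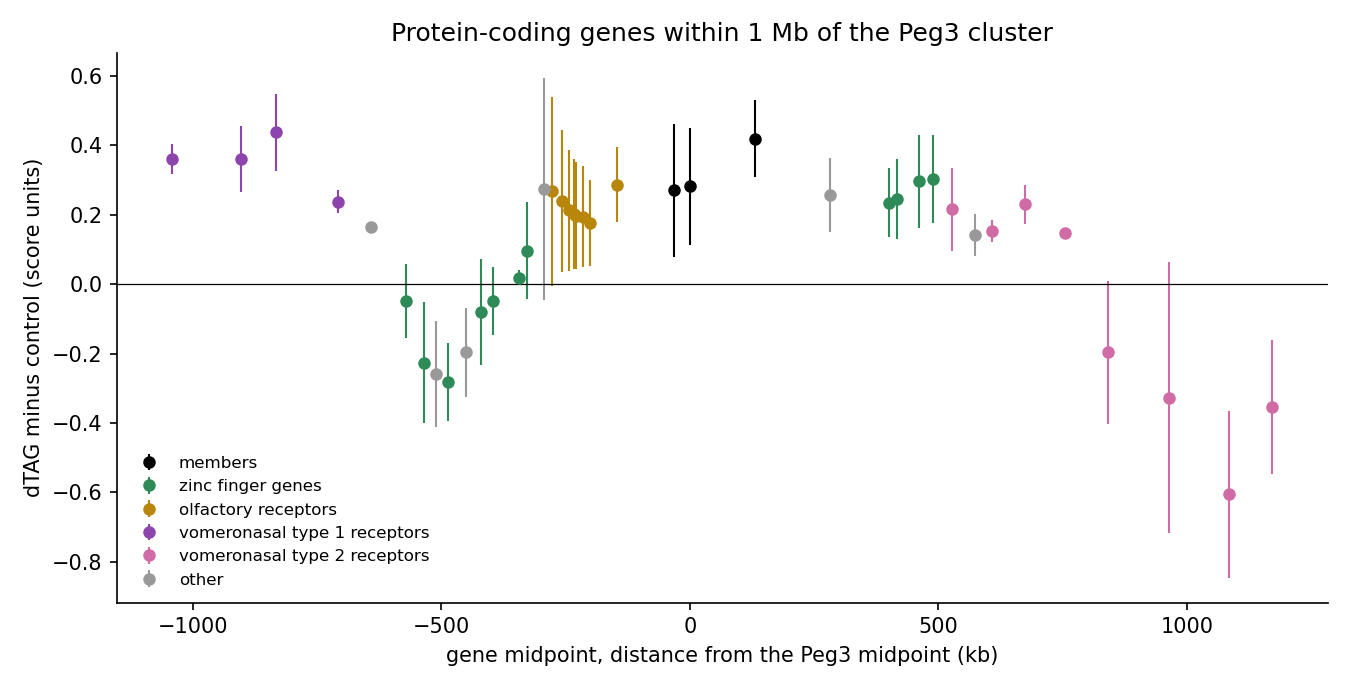
Difference in timing score, dTAG minus control in score units (y axis), of each protein-coding gene within 1 Mb against its distance from the Peg3 midpoint in kb, coloured by family; each vertical line joins the differences within replicate numbers 1 and 2. The members lie at 0.27, 0.28 and 0.42, and neighbouring genes have like values.

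The genes elsewhere whose 4 scores came closest to those of Peg3 were ranked by the largest gap in any of the 4 profiles. Gmfb on chromosome 14 was nearest, with a largest gap of 0.036, followed by Etaa1 on chromosome 11 at 0.0605 and Cgrrf1 on chromosome 14 at 0.0628. Gm30083 on chromosome 14 and Olfr1395 on chromosome 11 came next, at 0.0826 and 0.0857. Gmfb had 2.15 and 1.91 in dTAG and 2.07 and 1.48 in control cells, and its difference was 0.26. That match follows from how the genes were chosen, and Gmfb and Cgrrf1 are neighbours on 1 smoothed profile.

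Against other imprinted clusters the members were mid-range in level, and their positive differences were shared by some clusters and not by others. The median score of the 3 members was 1.90 and their median difference 0.28, while over all genes these medians were 3.25 and -0.02. Genes of 1 cluster are neighbours on 1 smoothed profile, so counts over a cluster, here and below, are not counts of independent observations. The difference was above 0 within both replicate numbers at 3 of 3 members, against 25.3% of all genes. In the Igf2r and Airn cluster on chromosome 17 it was so at 4 of 5 genes, with a median score of 3.21 and a median difference of 0.28. Its earliest gene was Mas1, with 4.71 and 4.22 in dTAG and 4.32 and 3.91 in control cells, and its latest Slc22a3, an organic cation transporter, with 0.96 and -0.21 in dTAG and 1.01 and 0.32 in control cells.

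The Prader-Willi and Angelman cluster, on the same chromosome as Peg3, went the other way. Its median score was -1.96 and its median difference -0.67, and the difference was below 0 within both numbers at 7 of 8 genes, against 30.6% of all genes. Its earliest gene was Mkrn3, with -1.71 and -1.73 in dTAG and -0.86 and -1.21 in control cells, and its latest Atp10a, with -3.66 and -5.55 in dTAG and -3.56 and -5.44 in control cells. The Dlk1 to Dio3 cluster had a median score of -2.10 and a median difference of 0.06. It spanned from Meg3, with -1.59 and -3.37 in dTAG and -1.75 and -3.36 in control cells, to Dio3, with 3.51 and 3.45 in dTAG and 3.29 and 3.15 in control cells. In the H19, Igf2 and Kcnq1 clusters the medians were 3.20 and -0.11. The latest gene there was H19, with 0.51 and -0.46 in dTAG and 0.56 and -0.68 in control cells, and the earliest Nap1l4, with 3.61 and 3.47 in dTAG and 4.05 and 3.35 in control cells. The 31 imprinted genes outside these clusters had a median score of 2.13 and a median difference of -0.00. With group as the only term limma called 0 genes in every one of these lists. With the replicate block and a trended, robust variance limma called 2.59% of all genes. In the Prader-Willi and Angelman cluster it called 1 of 8, Snrpn (adjusted p = 0.0107). Outside the clusters it called 3 of 31, Nap1l5 (adjusted p = 0.00508), Herc3 (adjusted p = 0.00517) and Sfmbt2 (adjusted p = 0.0383). Nap1l5 and Herc3 are both on chromosome 6 and had like differences, -1.21 and -1.14. All 4 were lower in dTAG, and they are named here after their values were seen. Whether the clusters differ from one another in their difference was not tested.

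Repeated YY1 sites are also known at the control regions of Gnas and its antisense transcript and of Xist and Tsix. Of the 5 genes of that list, Peg3 and Tsix had differences above 0 within both numbers, and Gnas and Gnasas1 below 0. Gnas had 2.46 and 1.49 in dTAG and 2.70 and 1.70 in control cells, a difference of -0.22, and Gnasas1 had 2.51 and 1.501 in dTAG and 2.76 and 1.70 in control cells, also -0.22. Xist had 4.29 and 3.59 in dTAG and 4.28 and 3.60 in control cells, and Tsix 4.27 and 3.55 in dTAG and 4.22 and 3.55 in control cells, with differences of -0.00 and 0.03. The 5 genes stand for 3 loci, since Gnas and Gnasas1 share a locus, as do Xist and Tsix, and Peg3 is one of the 5.

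**Figure D5:**
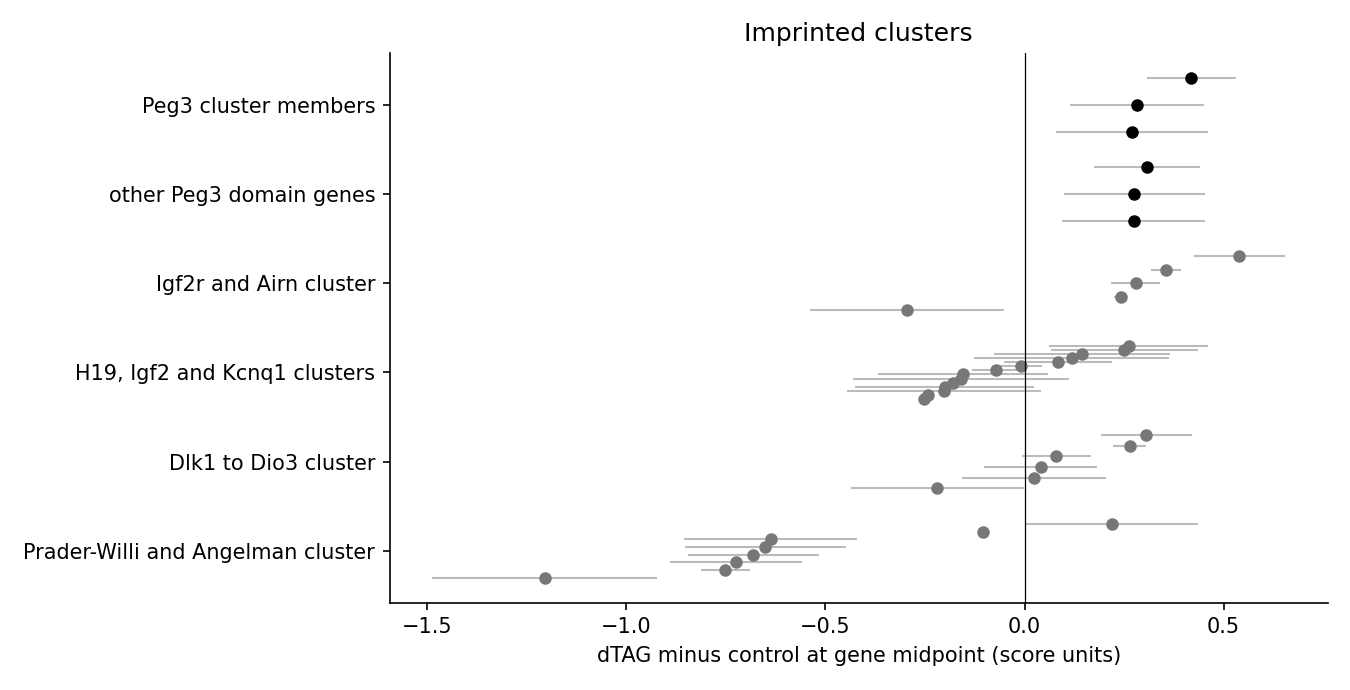
Difference in timing score at the gene midpoint, dTAG minus control in score units (x axis), for the genes of 6 imprinted groups (rows); each dot is a gene, each line joins its differences within replicate numbers 1 and 2, and black marks the Peg3 domain. The Peg3 genes lie between 0.27 and 0.42, and 7 of 8 genes of the Prader-Willi and Angelman cluster lie below 0.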

How the data were processed

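The authors deposited 1 table of timing scores for the whole series. Its name says that the score was made on mm10 with Loess smoothing and quantile normalization, per the file headers a single column for each profile. Bowtie2, SAMtools and bedtools are named in the submitters' processing notes, with versions not given in the sources used here. Of 526745 positions, 514245 had values in all 4 profiles and were used, and 4 with only some values were left out. The formula and log base are not stated, so differences are in score units. Tests planned for log2 values were run on the scores.

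Genes took the score at their midpoint by the RefSeq coordinates of GRCm38.p6, which mm10 is built from. The dTAG and control profiles were set against each other in limma 3.58.1 (R 4.3.3) with lmFit and eBayes and no covariate. The p-values are 2-sided and were adjusted by Benjamini-Hochberg over 21536 genes or 51425 windows, with a threshold of 0.05. The code was tested on simulated data. Tables were read with pandas 2.3.3 and numpy 2.4.6 under Python 3.11.15, and plots drawn with matplotlib 3.10.9. Alternatives were another normalization, other window sizes and gene positions, the replicate block, and leaving out each profile.

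The genes named by rule are the 3 scored members, the other domain genes and the genes with clustered YY1 sites. The same holds for neighbours within 1 Mb with the 3 highest and 3 lowest scores and the 2 highest and 2 lowest differences. It also holds for the 5 genes most like Peg3 and the earliest and latest gene of each other imprinted cluster. Clcn4, Vmn2r29, Snrpn, Nap1l5, Herc3 and Sfmbt2 were named outside these rules. Members and lists were chosen with earlier results of these data known. Zfp264 had no match in the gene table.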

Additional observations from a re-analysis of the deposited data

How the results depend on the processing

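The difference at Usp29 stayed above 0 under all 11 alternatives, between 0.30 and 0.51, and those at Peg3 and Zim1 under 10 of 11. The 0.30 was read at the start of Usp29, which falls on the same position as the start of Peg3. At that position dTAG 2, with 1.93, lay below control 1, with 2.06, so the groups overlapped. Without control replicate 2 the differences at Peg3 and Zim1 were -0.029 and -0.032, and over the other profiles left out they reached 0.59 at Peg3 and 0.57 at Zim1. The median difference of all genes was -0.22 without control replicate 2. No alternative passed the test at a member, with the lowest adjusted p 0.112 (limma with the replicate block, trended and robust variance, at Usp29). The count of genes called by limma was 0, with 558 under the replicate block with trended and robust variance, of which 157 were higher in dTAG, and between 0 and 5 with 1 profile left out. The plain replicate block called 0 genes, with 1656 at an unadjusted p under 0.05. The deviations of same-numbered profiles from their group means correlated over genes (r = 0.64). Over the series, r was 0.993 and 0.985 between same-numbered profiles, against 0.969 between the dTAG profiles and 0.970 between the controls. The main fit has no term for the number, so its standard errors include the gap between numbers, and the plain block gave smaller ones at each member. Only 2 numbers are shared and the labels do not say what a number marks, so the main fit did not treat the profiles as pairs. Windows in the region shifted by at least 0.5 numbered 0, with 5 at a minimum of 0.25 (2.45% of windows in the series were so much higher), 16 with no minimum (10.9%) and between 0 and 8 with 1 profile left out. Positions of the cluster with both dTAG profiles above both controls numbered 42, with 38 to 40 under 2 other scalings. With 1 profile left out they numbered 42 to 59. All of these alternatives were chosen after seeing the data. Leaving out a profile eases the condition, so neither this count nor that of shifted windows can fall. The shares over the series under the eased condition were not computed. With 1 profile in a group its spread was taken from the other group. Leaving out 1 profile moved the median difference of all genes to between -0.28 and 0.20, so such values move with the whole series. Depth is unknown, and along chromosome 7 the smoothed differences still correlated by 0.53 at 250 kb.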
